A study of Rattus norvegicus with 30 samples.

Results

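The genes described here encode the SLC25 carriers, the family of transport proteins of the inner mitochondrial membrane, and their RNA was read on arrays from cultured rat hepatocytes that had received dioctyl phthalate. Every gene whose array symbol begins with Slc25a was taken, apart from Slc25a20, with 1 probe set per gene. Where a gene had several probe sets with a single gene symbol, the one with the highest mean signal over all 30 arrays was used. This gave 39 genes of the 14217 that had a probe set of their own, and 35 of the 39 lay above the low-signal limit and were tested among 10528 genes. Slc25a18, Slc25a21, Slc25a31 and Slc25a34 lay below it.

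Primary hepatocytes of male Sprague Dawley rats, bought frozen, were thawed, plated on collagen under a Matrigel overlay and treated on the third day of culture. The 6 groups were vehicle (1% DMSO), 250 µM and 1000 µM dioctyl phthalate, each for 24 h and for 48 h, with 5 wells and 5 arrays in every group. All groups shared the cell source, the strain, the culture system and, per the labels, DMSO as the solvent. The labels call the wells independent cultures but do not say how many animals or vials stood behind them, so errors and p-values describe the spread between wells.

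SLC25 carriers move nucleotides, phosphate, carboxylates, amino acids, cofactors and metal ions across the inner mitochondrial membrane, and so connect metabolism in the matrix with that of the cytosol. In the liver they serve oxidative phosphorylation, the urea cycle, the malate-aspartate shuttle, lipid synthesis from exported citrate and the supply of coenzyme A for fatty acid oxidation. Exceptions to the common location are Slc25a17, which sits in the peroxisome membrane, and Slc25a46, which sits in the outer mitochondrial membrane. Phthalate diesters are plasticizers, and in rodents their metabolites are known as ligands of PPARα, a nuclear receptor that controls genes of fatty acid oxidation.

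All 9 hepatocyte markers on the array, Alb and Hnf4a among them, lay above the low-signal limit, with a summed signal of 341000 to 559000 over all groups. Of the markers of other liver cells, 5 of 8 for stellate cells, 5 of 7 for Kupffer cells and leukocytes, 2 of 6 for endothelium and 1 of 5 for cholangiocytes were above it. The summed stellate list lay at 10100 to 16400 in the vehicle groups and at 6700 to 8610 in the treated groups. A sum is weighted to the genes of highest signal. Of this list, Col1a2, Lrat and Pdgfrb were below the limit. Of the 5 stellate markers tested, 2 fell and none rose at each dose at 24 h, 1 fell and 1 rose at 250 µM for 48 h, and 1 fell and none rose at 1000 µM for 48 h, with medians of 0.01, 0.20, -0.04 and -0.05. Acta2 fell at 24 h (-0.46 at both doses), Col1a1 rose at 250 µM for 48 h (0.78), and the vimentin gene Vim fell in all 4, with log2 changes of -1.28, -1.19, -1.70 and -1.41 in the order 250 µM and 1000 µM at 24 h, then at 48 h. Of 9 hepatocyte markers, 1 rose and 1 fell at each dose at 24 h, and 1 rose and 2 fell at each dose at 48 h. Of 5 Kupffer and leukocyte markers, 0 were called at 24 h. At 48 h 1 of them rose at 250 µM, and 1 rose and 1 fell at 1000 µM. The shares of all genes called are given below. Whether other cell types or changes in their number had a part in the carriers' values was not tested. In bulk RNA, fewer cells of a type and less RNA per cell cannot be told apart. The vehicle wells at 48 h had the highest mean of both 3′ to 5′ ratios read as measures of RNA quality. The β-actin ratio, the log2 signal of its 3′ probe set minus that of its 5′ probe set, was 1.72 ± 0.494 (SD, n = 5) there, against 1.14 ± 0.084 in vehicle at 24 h and means of 1.14 to 1.30 in the treated groups (exact two-sided permutation test of vehicle at 48 h against 24 h, p = 0.0397, adjusted over 10 tests 0.0794). The GAPDH ratio, taken in the same way, was 0.219 ± 0.0545 in vehicle at 48 h, against 0.147 ± 0.0216 in vehicle at 24 h, 0.131 ± 0.0443 at 250 µM and 0.142 ± 0.0369 at 1000 µM for 48 h (exact permutation tests, p = 0.0397, 0.0238 and 0.0397, each 0.0794 after adjustment over the 10 tests). For β-actin, replicates 1, 2, 3 and 5 gave 2.44, 1.74, 1.70 and 1.66, and replicate 4 gave 1.04. Carrier results at 48 h are therefore given below also with this ratio as a covariate and without those 4 arrays. This was done where a call or a value depended on them.

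Promoters are shown for 4 carriers that changed at both doses and both times, to place the start sites beside the expression results. RefSeq (assembly GRCr8) gave an upstream stretch of 250 bases for 33 of the 39 carriers, 34 sequences in all since Slc25a48 had 2. Slc25a42 and Slc25a45 rose, and Slc25a29 and Slc25a33 fell. The sequences run 5′ to 3′ up to the base before the start site, and capitals mark CCAAT on either strand (written ATTGG on the other), the E-box CACGTG and the cyclic AMP response element TGACGTCA. These 3 motifs were chosen with the sequences in view.
Slc25a42, chr16:19247724-19247973 (+ strand): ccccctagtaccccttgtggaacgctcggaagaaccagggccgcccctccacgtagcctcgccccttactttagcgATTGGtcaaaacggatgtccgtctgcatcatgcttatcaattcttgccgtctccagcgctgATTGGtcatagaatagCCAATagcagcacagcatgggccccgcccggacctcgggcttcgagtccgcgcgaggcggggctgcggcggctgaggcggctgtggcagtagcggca
Slc25a45, chr1:212596601-212596850 (+ strand): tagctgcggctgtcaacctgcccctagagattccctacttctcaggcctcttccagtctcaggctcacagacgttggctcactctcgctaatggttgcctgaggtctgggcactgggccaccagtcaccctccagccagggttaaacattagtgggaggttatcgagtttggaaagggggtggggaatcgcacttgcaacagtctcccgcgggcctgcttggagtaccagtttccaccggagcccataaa
Slc25a29, chr6:133517198-133517447 (- strand): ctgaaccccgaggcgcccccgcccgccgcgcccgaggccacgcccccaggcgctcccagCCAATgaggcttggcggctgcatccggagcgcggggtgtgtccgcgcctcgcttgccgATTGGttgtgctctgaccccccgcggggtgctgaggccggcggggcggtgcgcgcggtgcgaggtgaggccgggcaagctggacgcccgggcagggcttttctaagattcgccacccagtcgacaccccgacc
Slc25a33, chr5:165502974-165503223 (- strand): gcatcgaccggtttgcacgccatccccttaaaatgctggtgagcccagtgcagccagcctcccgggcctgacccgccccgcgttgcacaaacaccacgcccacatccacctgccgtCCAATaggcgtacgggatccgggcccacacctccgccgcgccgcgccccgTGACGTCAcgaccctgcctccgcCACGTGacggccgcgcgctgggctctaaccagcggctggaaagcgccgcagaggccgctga
CCAAT stood in 19 of the 34 carrier sequences (55.9%) and in 34% of all 33469 upstream sequences of the same length, and the median GC content was 58% against 51.2%. CACGTG stood in 3 (8.82%, against 5.59% of all) and TGACGTCA in 2 (5.88%, against 1.59%), and Slc25a33 held both. The direct repeat AGGNCANAGGNCA, searched on both strands as a relaxed form of the PPAR response element, matched none of the 34 and 0.368% of all sequences. The NRF1 motif GCGCATGCGC also matched none, against 0.762% of all. The single element of the direct repeat, AGGTCA, matched 5 (14.7%, against 14.1% of all), in Slc25a16, Slc25a27, Slc25a34, Slc25a39 and Slc25a41. A match is a run of letters and not a binding site, and no match says only that these letters are not in this window.

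Dioctyl phthalate changed the RNA of carriers in both directions. Across the 4 comparisons of a dose with its vehicle, 14 of the 35 tested carriers rose at least once, 8 fell at least once, 13 never passed the test, and no carrier rose in one comparison and fell in another. Slc25a42, Slc25a13 and Slc25a45 rose in all 4, and Slc25a29, Slc25a33, Slc25a24, Slc25a23 and Slc25a15 fell in all 4. These patterns are those of the fit of all arrays and of the probe set used. Slc25a13, Slc25a45, Slc25a33, Slc25a24, Slc25a23 and Slc25a15 lost calls in other fits, as given below. Another probe set of Slc25a15 fell at 24 h and rose at 250 µM for 48 h. Over all tested genes such counts across comparisons were not computed. In single comparisons 19.3% to 41.2% of all genes were called in either direction. Calls were made with limma at a Benjamini-Hochberg adjusted p under 0.05 over all tested genes. All levels below are log2 of the signal plus 1, and changes are differences of group means on that scale with their standard error, from which folds are taken.

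At 24 h, 250 µM raised 5 carriers and lowered 6, and 1000 µM raised 5 and lowered 5. Over all tested genes 8.31% rose and 11% fell at 250 µM, and 8.28% rose and 11.2% fell at 1000 µM, against 14.3% and 17.1%, and 14.3% and 14.3%, of the carriers. At 48 h, 250 µM raised 14 carriers (40%, against 15.2% of all genes) and lowered 7 (20%, against 26%), and 1000 µM raised 9 (25.7%, against 11.5%) and lowered 5 (14.3%, against 18.3%). The median change of the carriers was 0.06 and 0.04 at 24 h and 0.14 and 0.05 at 48 h, at 250 and 1000 µM, and that of all genes was -0.03, -0.03, -0.07 and -0.04. With the β-actin ratio as a covariate the 48 h calls became 12 at 250 µM, 11 of which were among the 21 above, and 12 at 1000 µM, 10 of them among the 14. Without the 4 vehicle arrays of high ratio they became 9 and 7, of which 8 and 5 were shared. That fit leaves 1 vehicle array at 48 h, which is assumed to vary as the other groups do.

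**Figure D1:**
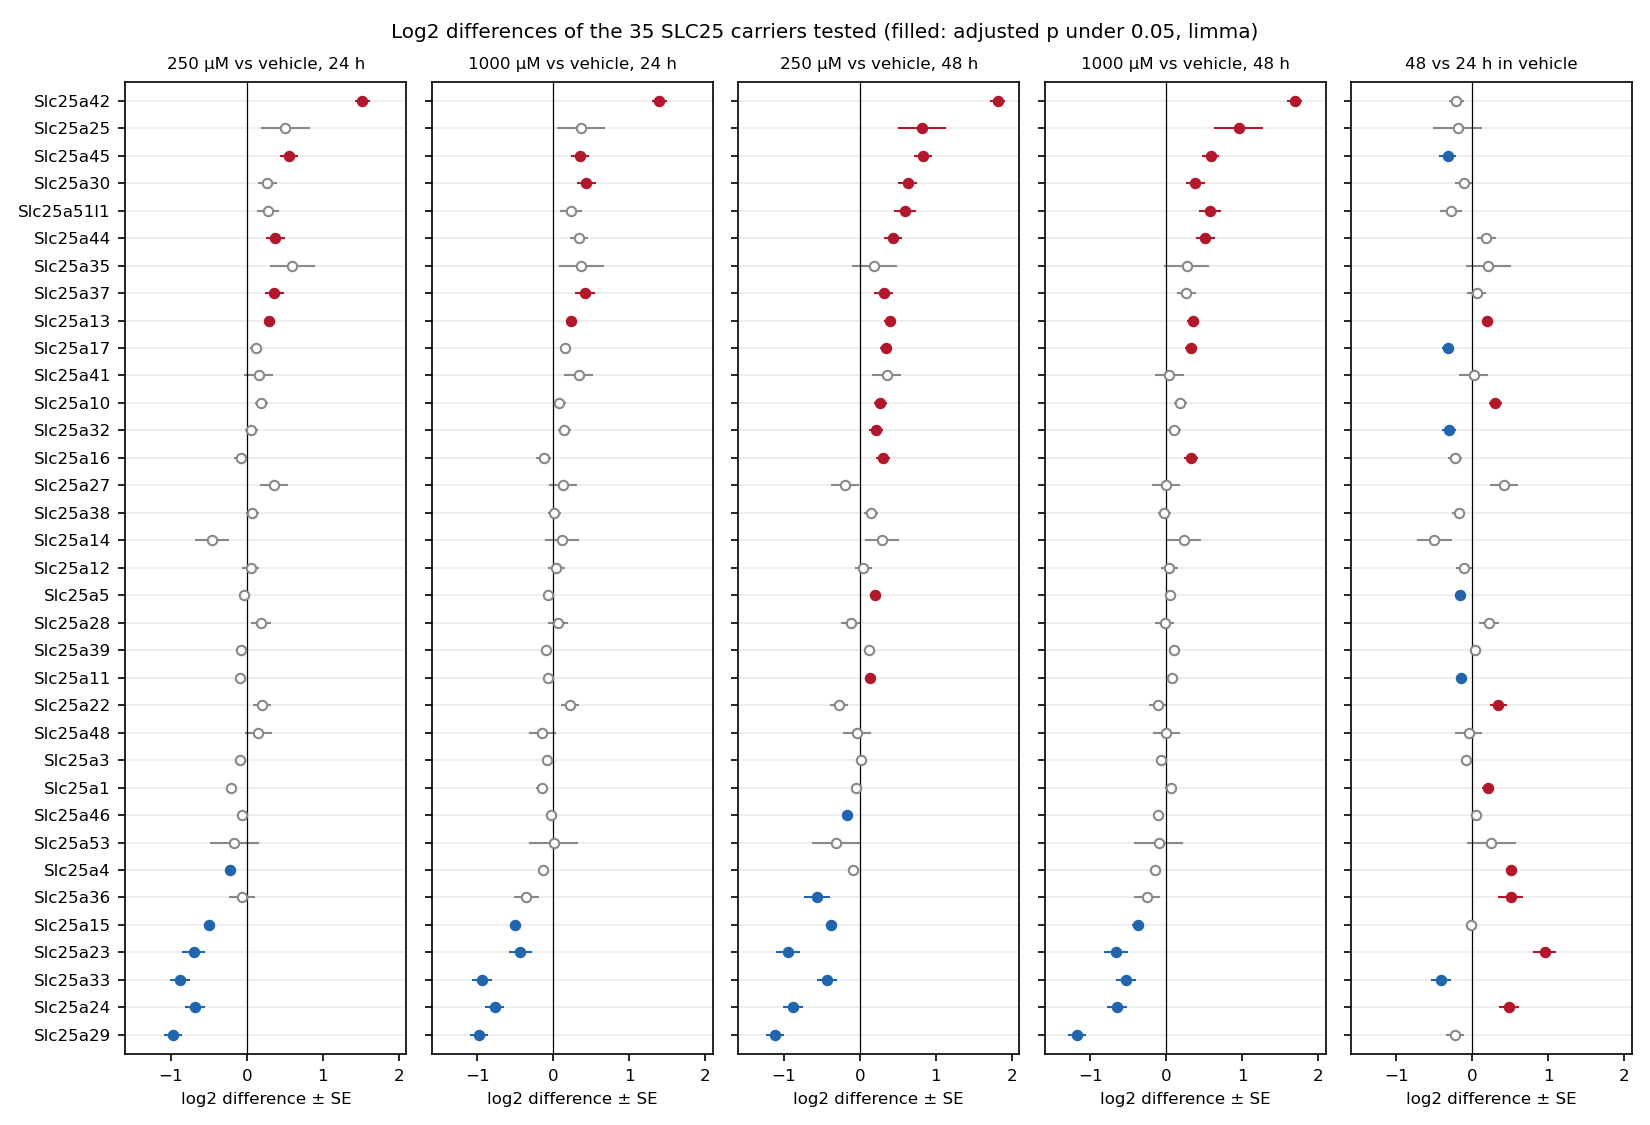
Each row is 1 of the 35 tested carriers, and each panel gives its log2 difference with the standard error for a dose against vehicle at 24 or 48 h, or for vehicle at 48 h against 24 h. Filled red points rose and filled blue points fell at an adjusted p under 0.05 (limma), and open points did not pass; Slc25a42 lies at 1.40 to 1.82 in the 4 dose panels and Slc25a29 at -0.97 to -1.17.

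The carriers of cofactors and nucleotides held the member with the largest change. Of 6 tested, 1 rose and 1 fell at each dose at 24 h, 4 rose and 2 fell at 250 µM for 48 h, and 3 rose and 1 fell at 1000 µM for 48 h. Slc25a42 brings coenzyme A into the matrix in exchange for adenine nucleotides. Its log2 signals at 24 h, with the wells in the order of their replicate numbers as in all such lists, were 10.33, 10.44, 10.61, 10.46 and 10.24 in vehicle, 11.85, 11.83, 11.83, 12.18 and 11.99 at 250 µM, and 11.59, 11.76, 11.81, 11.88 and 12.01 at 1000 µM. At 48 h they were 10.40, 10.14, 10.15, 10.09 and 10.24 in vehicle, 11.97, 12.24, 12.23, 11.64 and 12.01 at 250 µM, and 12.02, 11.96, 11.79, 11.97 and 11.74 at 1000 µM. Every treated array lay above every vehicle array of its time, the highest vehicle value being 10.61 and the lowest treated value 11.59. The changes were 1.52 ± 0.10, 1.40 ± 0.10, 1.82 ± 0.10 and 1.69 ± 0.10 for 250 and 1000 µM at 24 h and then at 48 h, which is 2.87-, 2.63-, 3.52- and 3.23-fold (limma, adjusted p 3.96e-14, 4.04e-13, 2.19e-16 and 2.19e-15). With the covariate the 48 h changes were 1.93 and 1.77, and without the 4 arrays 1.93 and 1.81.

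Slc25a33 and Slc25a36 carry pyrimidine nucleotides. Slc25a33 gave 11.29, 11.16, 10.90, 10.87 and 11.13 in vehicle, 10.31, 10.38, 10.41, 10.07 and 9.76 at 250 µM, and 10.47, 10.05, 10.02, 10.07 and 10.03 at 1000 µM at 24 h. Its values at 48 h were 10.59, 10.75, 10.69, 10.76 and 10.48 in vehicle, 10.29, 10.29, 10.32, 10.21 and 10.01 at 250 µM, and 10.04, 10.36, 10.36, 9.62 and 10.28 at 1000 µM. The treated arrays lay below all vehicle arrays at both times, and the vehicle arrays were themselves lower at 48 h than at 24 h without overlap. The changes were -0.88 ± 0.13 and -0.94 ± 0.13 at 24 h and -0.43 ± 0.13 and -0.52 ± 0.13 at 48 h (limma, adjusted p 2.67e-06, 9.48e-07, 0.00755 and 0.00202). At 48 h the calls were lost without the 4 arrays, although the changes were -0.54 and -0.63 (adjusted p 0.144 and 0.0834), and the call at 250 µM was lost with quantile normalization (-0.33, adjusted p 0.066). The difference between the times in its response was 0.45 ± 0.18 at 250 µM and 0.42 ± 0.18 at 1000 µM and did not pass (limma, adjusted p 0.119 and 0.359).

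For Slc25a36 the 24 h arrays read 9.39, 9.18, 9.23, 8.74 and 9.42 in vehicle, 8.58, 9.04, 9.36, 9.61 and 9.05 at 250 µM, and 9.05, 9.08, 8.69, 8.27 and 9.09 at 1000 µM. Those at 48 h read 9.79, 9.59, 9.61, 9.71 and 9.79 in vehicle, 9.21, 9.43, 8.89, 9.05 and 9.07 at 250 µM, and 9.46, 9.30, 9.32, 9.59 and 9.54 at 1000 µM. The groups overlapped at 24 h, and at 48 h the 250 µM arrays lay below all vehicle arrays while the highest 1000 µM array, at 9.59, reached the vehicle range. It fell at 250 µM for 48 h (-0.56 ± 0.17, limma, adjusted p 0.00713) and gave -0.25 ± 0.17 at 1000 µM, which did not pass. The call was lost with the covariate (-0.54, adjusted p 0.0655) and without the 4 arrays (-0.58, adjusted p 0.27).

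The remaining cofactor carriers moved at 48 h. Slc25a17, which exchanges cofactors such as coenzyme A across the peroxisome membrane, rose by 0.34 ± 0.07 and 0.33 ± 0.07, with all treated arrays above all vehicle arrays (limma, adjusted p 0.000329 and 0.000807). Slc25a16, a carrier linked to mitochondrial coenzyme A, rose by 0.31 ± 0.10 and 0.33 ± 0.10 (adjusted p 0.0092 and 0.00833). Slc25a32, the folate and flavin carrier, rose at 250 µM (0.22 ± 0.09, adjusted p 0.0488). None of these 3 passed at 24 h, where their changes ran from -0.13 to 0.16, although Slc25a17 at 1000 µM did in the fit without the 4 arrays (0.16, adjusted p 0.0305). All 3 calls of Slc25a17, Slc25a16 and Slc25a32 at 250 µM were lost both with the covariate and without the 4 arrays. That of Slc25a32 was also lost with centred medians, no filter on low values, a pseudocount of 50 and the mean of its probe sets. The second probe set of Slc25a32 read 0.07 there and did not pass. At 1000 µM the covariate left Slc25a17 at 0.19 (adjusted p 0.0524) and Slc25a16 at 0.11 (adjusted p 0.39), and both calls were lost without the 4 arrays as well (0.10 and 0.08).

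Among the carriers of adenine nucleotides and phosphate, 7 were tested. At 24 h, 3 fell at 250 µM and 2 at 1000 µM, with none raised. At 48 h, 2 rose and 2 fell at 250 µM, and 1 rose and 2 fell at 1000 µM. The members that moved most were the calcium-regulated carriers of ATP-magnesium and phosphate, Slc25a23, Slc25a24 and Slc25a25, which adjust the adenine nucleotide content of the matrix. They did not move the same way in the fit of all arrays. Slc25a23 and Slc25a24 fell at both times, and Slc25a25 rose at 48 h only. The contrast of Slc25a23 with Slc25a25 at 48 h depended on the vehicle arrays. Without its lowest vehicle array Slc25a25 read 0.34 and 0.47 at 250 and 1000 µM, and neither passed. Without the vehicle arrays of high β-actin ratio Slc25a23 read -0.17 and 0.12. With that ratio as a covariate both genes kept their directions.

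Slc25a24 gave 12.92, 12.03, 11.94, 11.86 and 11.74 in vehicle, 11.60, 11.52, 11.39, 11.42 and 11.14 at 250 µM, and 11.37, 11.37, 11.26, 11.26 and 11.36 at 1000 µM at 24 h. It gave 12.44, 12.84, 12.55, 12.50 and 12.57 in vehicle, 11.80, 11.83, 11.73, 11.60 and 11.56 at 250 µM, and 12.03, 11.91, 11.89, 12.003 and 11.85 at 1000 µM at 48 h. All treated arrays lay below all vehicle arrays at both times, and vehicle replicate 1 at 24 h stood high at 12.92. The changes were -0.68 ± 0.13, -0.77 ± 0.13, -0.88 ± 0.13 and -0.64 ± 0.13 for 250 and 1000 µM at 24 h and then at 48 h (limma, adjusted p 0.000119, 2.15e-05, 1.37e-06 and 0.000198). Without the 4 arrays the change at 1000 µM for 48 h was -0.57 and no longer passed (adjusted p 0.124), and that at 250 µM was -0.80 (adjusted p 0.0169).

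Slc25a23 gave 9.25, 9.47, 9.68, 9.75 and 9.65 in vehicle, 9.16, 8.96, 8.58, 8.66 and 8.96 at 250 µM, and 8.95, 9.13, 9.19, 9.21 and 9.16 at 1000 µM at 24 h. Its arrays at 48 h gave 10.86, 10.67, 10.66, 9.73 and 10.63 in vehicle, 9.79, 9.50, 9.49, 9.38 and 9.68 at 250 µM, and 9.96, 9.85, 9.58, 9.97 and 9.90 at 1000 µM. The treated arrays were below all vehicle arrays at 24 h. At 48 h they were below 4 of the 5 vehicle arrays, and vehicle replicate 4, the well of low β-actin ratio, lay among them at 9.73. The changes were -0.70 ± 0.15, -0.44 ± 0.15, -0.94 ± 0.15 and -0.66 ± 0.15 in the same order (limma, adjusted p 0.000801, 0.0408, 7.18e-06 and 0.00108). The 48 h result depended on the vehicle arrays of high ratio: without them it was -0.17 at 250 µM (adjusted p 0.729) and 0.12 at 1000 µM (adjusted p 0.835), and with the covariate -0.56 (adjusted p 0.0101) and -0.38 (adjusted p 0.0687). At 24 h the call at 1000 µM was lost when any array of these groups except vehicle replicate 1 was left out (-0.39 to -0.46, adjusted p 0.0501 to 0.0997), with centred array medians (-0.40, adjusted p 0.126) and with quantile normalization (-0.40, adjusted p 0.0646).

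Slc25a25 gave 8.995, 9.18, 9.23, 8.49 and 8.14 in vehicle, 9.48, 9.63, 9.58, 9.27 and 8.60 at 250 µM, and 9.28, 9.30, 9.06, 9.10 and 9.10 at 1000 µM at 24 h. The 48 h readings were 9.47, 8.79, 8.82, 6.68 and 9.30 in vehicle, 9.76, 9.41, 9.35, 8.81 and 9.82 at 250 µM, and 9.67, 9.94, 9.34, 9.28 and 9.60 at 1000 µM. Treated and vehicle arrays overlapped at both times, and vehicle replicate 4 at 48 h, at 6.68, was the one reading of this gene below the low-signal limit of 7.88. The changes at 24 h were 0.51 ± 0.32 and 0.36 ± 0.32 and did not pass, and those at 48 h were 0.82 ± 0.32 and 0.95 ± 0.32 (limma, adjusted p 0.0397 and 0.0232). Without vehicle replicate 4 at 48 h the changes fell to 0.34 (adjusted p 0.238) and 0.47 (adjusted p 0.109). Where that replicate alone stood for vehicle, they were 2.75 and 2.89, and with the covariate 1.75 and 1.64. The 250 µM call was also lost without its own replicates 1, 2, 3 or 5 (0.72 to 0.84, adjusted p 0.0547 to 0.0976), and the 1000 µM call without its replicate 2 (0.86, adjusted p 0.0606). Centred medians (0.82, adjusted p 0.0628), quantile normalization (0.87, adjusted p 0.0506) and the fit with no filter on low values (0.82, adjusted p 0.0573) also lost the call at 250 µM.

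The ADP/ATP carriers of the inner membrane changed less. Slc25a4, the form known from heart and muscle, fell at 250 µM for 24 h (-0.22 ± 0.06, limma, adjusted p 0.00835), with all treated arrays below all vehicle arrays, and did not pass elsewhere (-0.13 ± 0.06, -0.09 ± 0.06 and -0.15 ± 0.06). The 24 h call was lost with centred array medians (-0.20, adjusted p 0.126). At 48 h Slc25a4 passed at both doses with the covariate (-0.22 and -0.25, adjusted p 0.0151 and 0.00347), without the 4 arrays (-0.33 and -0.39, adjusted p 0.0195 and 0.00593) and with quantile normalization (-0.22 at both, adjusted p 0.00132 and 0.00159), which also called 1000 µM at 24 h (-0.17, adjusted p 0.0165). Slc25a5, the form of most tissues, rose at 250 µM for 48 h (0.20 ± 0.06, adjusted p 0.00878), and this call was lost with the covariate and without the 4 arrays. Slc25a3, the phosphate carrier, stayed within -0.09 and 0.01 in the 4 comparisons and Slc25a41 within 0.04 and 0.36, and neither passed. Slc25a31, the germ-line ADP/ATP carrier, had group means of 5.66 to 6.64, all below the low-signal limit.

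Of the 7 amino acid carriers tested, 2 rose and 2 fell at 250 µM for 24 h, 1 rose and 2 fell at 1000 µM for 24 h, and 2 rose and 2 fell at each dose at 48 h. The members called were Slc25a29 and Slc25a15, which fell, and Slc25a13 and Slc25a44, which rose. Slc25a29, a carrier of basic amino acids such as arginine and lysine, gave 11.02, 11.45, 11.74, 11.28 and 11.56 in vehicle, 10.53, 10.35, 10.53, 10.37 and 10.41 at 250 µM, and 10.32, 10.77, 10.47, 10.12 and 10.48 at 1000 µM at 24 h. At 48 h its arrays gave 11.43, 11.13, 11.17, 10.90 and 11.29 in vehicle, 10.06, 10.07, 10.04, 10.14 and 10.04 at 250 µM, and 10.08, 9.88, 10.21, 10.16 and 9.74 at 1000 µM. Every treated array lay below every vehicle array of its time. The changes were -0.97 ± 0.12, -0.98 ± 0.12, -1.11 ± 0.12 and -1.17 ± 0.12, so that the signal was 1.96-, 1.97-, 2.16- and 2.25-fold lower (limma, adjusted p 7.31e-08, 7.16e-08, 2.47e-09 and 1.16e-09). It remained called at 48 h with the covariate (-0.94 and -1.04) and without the 4 arrays (-0.83 and -0.89).

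Slc25a15 brings ornithine into the matrix for the urea cycle. Its 24 h values were 13.64, 14.07, 13.93, 13.89 and 13.96 in vehicle, 13.44, 13.45, 13.41, 13.36 and 13.33 at 250 µM, and 13.31, 13.42, 13.43, 13.47 and 13.34 at 1000 µM. Its 48 h values were 14.02, 13.93, 13.91, 13.61 and 13.94 in vehicle, 13.68, 13.45, 13.37, 13.55 and 13.49 at 250 µM, and 13.67, 13.41, 13.42, 13.50 and 13.54 at 1000 µM. The treated arrays were all below vehicle at 24 h, and at 48 h vehicle replicate 4 at 13.61 lay within the range of the treated arrays. The changes were -0.50 ± 0.07, -0.50 ± 0.07, -0.37 ± 0.07 and -0.37 ± 0.07 (limma, adjusted p 1.78e-06, 1.79e-06, 7.5e-05 and 0.000115). At 48 h the changes without the 4 arrays were -0.10 at both doses (adjusted p 0.651 and 0.671), and the covariate gave -0.18 (adjusted p 0.0652) and -0.23. This gene had 6 probe sets, 5 of them above the limit, and all 5 fell at 24 h (-0.50 to -0.67). At 250 µM for 48 h they disagreed: the other 4 read 0.14, -0.24, -0.14 and 0.46, of which -0.24 and 0.46 passed (adjusted p 0.00379 and 0.0417). The mean of its probe sets did not pass at 48 h (-0.03 and -0.11, adjusted p 0.723 and 0.205).

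Slc25a44, a carrier of branched-chain amino acids, gave 10.95, 11.09, 10.83, 11.25 and 11.24 in vehicle, 11.42, 11.41, 11.45, 11.44 and 11.50 at 250 µM, and 11.63, 11.39, 11.38, 11.23 and 11.40 at 1000 µM at 24 h. The arrays at 48 h gave 11.72, 11.33, 11.18, 10.94 and 11.10 in vehicle, 11.98, 11.78, 11.46, 11.57 and 11.66 at 250 µM, and 11.95, 11.78, 11.58, 11.42 and 12.12 at 1000 µM. The 250 µM arrays at 24 h lay above all vehicle arrays, and the other treated groups overlapped with vehicle. The changes were 0.37 ± 0.12, 0.34 ± 0.12, 0.44 ± 0.12 and 0.52 ± 0.12 (limma, adjusted p 0.0278, 0.0504, 0.00425 and 0.00134), so 1000 µM at 24 h just missed the threshold. The 250 µM call at 24 h was lost without its replicate 5 (0.36), without vehicle replicate 1 (0.34) or replicate 3 (0.31), and with centred medians (0.39, adjusted p 0.0904). The 1000 µM value at 24 h passed with the covariate (0.34, adjusted p 0.0151). At 48 h the changes were larger with the covariate (0.75 and 0.74) and without the 4 arrays (0.75 and 0.83).

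Slc25a13, citrin, exchanges aspartate for glutamate as part of the malate-aspartate shuttle and supplies aspartate to the urea cycle. It gave 13.65, 14.14, 14.12, 14.09 and 14.13 in vehicle, 14.23, 14.23, 14.45, 14.32 and 14.35 at 250 µM, and 14.18, 14.19, 14.34, 14.28 and 14.30 at 1000 µM at 24 h. It gave 14.35, 14.23, 14.12, 14.10 and 14.28 in vehicle, 14.65, 14.49, 14.66, 14.67 and 14.58 at 250 µM, and 14.58, 14.59, 14.53, 14.50 and 14.63 at 1000 µM at 48 h. All treated arrays lay above all vehicle arrays at both times. The changes were 0.29 ± 0.07, 0.23 ± 0.07, 0.39 ± 0.07 and 0.35 ± 0.07 (limma, adjusted p 0.00207, 0.0147, 2.34e-05 and 0.000176). The call at 1000 µM for 24 h was lost with centred array medians (0.27, adjusted p 0.0819). The changes at 48 h were 0.53 and 0.45 with the covariate and 0.51 and 0.46 without the 4 arrays. Its relative Slc25a12 stayed between 0.04 and 0.05 and did not pass. The glutamate carrier Slc25a22 gave 0.19 ± 0.12, 0.22 ± 0.12, -0.27 ± 0.12 and -0.10 ± 0.12 and the glycine carrier Slc25a38 0.07, 0.01, 0.15 and -0.03, and neither passed, although Slc25a38 at 250 µM for 48 h did with quantile normalization (0.25, adjusted p 0.0237). Slc25a18, a second glutamate carrier, had group means of 3.96 to 4.73, below the limit.

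Of the carriers of di- and tricarboxylates, 0 of 3 were called at either dose at 24 h (limma). The 250 µM arrays of Slc25a10 at 24 h still lay above all vehicle arrays (0.19 ± 0.09). At 48 h, 2 of 3 rose at 250 µM and none at 1000 µM. Slc25a10, the dicarboxylate carrier, rose by 0.27 ± 0.09 (limma, adjusted p 0.0122), and Slc25a11, the oxoglutarate and malate carrier of the malate-aspartate shuttle, by 0.14 ± 0.05 (adjusted p 0.0329). The Slc25a11 call was lost with the covariate, without the 4 arrays and with centred medians. The Slc25a10 call at 250 µM was lost with centred medians (0.27, adjusted p 0.0664) and with the mean of its probe sets. Its change was 0.53 with the covariate (adjusted p 4.7e-06) and 0.63 without the 4 arrays. At 1000 µM for 48 h Slc25a10 read 0.19 ± 0.09 (adjusted p 0.101), and it passed with the covariate (0.38, adjusted p 0.000152), without the 4 arrays (0.55, adjusted p 0.00181) and with quantile normalization (0.24, adjusted p 0.0383). At 250 µM for 24 h it also passed with the covariate and without the 4 arrays (0.18 and 0.19, adjusted p 0.0361 and 0.0491), against an adjusted p of 0.136 from all arrays. Slc25a1, which exports citrate for lipid synthesis, gave -0.21 ± 0.08, -0.15 ± 0.08, -0.04 ± 0.08 and 0.06 ± 0.08 and did not pass. Its value at 250 µM for 24 h (adjusted p 0.0584) did pass with quantile normalization, the covariate and without the 4 arrays (adjusted p 0.0421, 0.0345 and 0.0496). Slc25a21, the oxodicarboxylate carrier, had group means of 5.75 to 6.67, below the limit.

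Of the carriers related to the uncoupling proteins, Slc25a30 gave 11.13, 10.98, 11.52, 10.83 and 11.17 in vehicle, 11.40, 11.40, 11.59, 11.35 and 11.21 at 250 µM, and 11.54, 11.39, 11.88, 11.46 and 11.52 at 1000 µM at 24 h. It read 11.05, 11.05, 10.74, 11.10 and 11.12 in vehicle, 11.50, 11.81, 11.61, 11.63 and 11.66 at 250 µM, and 11.57, 11.61, 11.50, 10.82 and 11.48 at 1000 µM at 48 h. The 250 µM arrays at 48 h lay above all vehicle arrays, and the 1000 µM arrays did so apart from replicate 4 at 10.82. It rose at 1000 µM for 24 h (0.43 ± 0.12) and at both doses for 48 h (0.63 ± 0.12 and 0.38 ± 0.12), and 250 µM for 24 h did not pass (0.27 ± 0.12) (limma, adjusted p 0.138, 0.00993, 9.31e-05 and 0.0161). Without the 4 arrays the 48 h changes were 0.54 and 0.30 and did not pass (adjusted p 0.105 and 0.486). The 1000 µM call at 48 h was lost without its replicate 2 (0.33), without vehicle replicate 3 (0.32) and with centred medians (0.35). Without vehicle replicate 3 at 24 h, the 250 µM change was 0.36 and passed (adjusted p 0.0328). Slc25a14 (-0.46 ± 0.23, 0.11 ± 0.23, 0.30 ± 0.23 and 0.23 ± 0.23) and Slc25a27 (0.36 ± 0.18, 0.12 ± 0.18, -0.19 ± 0.18 and 0.00 ± 0.18) did not pass. The probe set of Slc25a14 is of a kind that Affymetrix marks as shared between transcripts of several genes.

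Among the iron and glutathione carriers, Slc25a37, the mitoferrin that supplies iron for heme synthesis, rose at 250 and 1000 µM for 24 h and at 250 µM for 48 h (0.36 ± 0.13, 0.42 ± 0.13 and 0.32 ± 0.13, limma, adjusted p 0.0389, 0.0157 and 0.0408), with overlapping arrays in each case. It gave 0.27 ± 0.13 at 1000 µM for 48 h, which passed with quantile normalization (0.31, adjusted p 0.0449). Its 250 µM call at 48 h was lost with the covariate and without the 4 arrays. The second mitoferrin, Slc25a28 (0.19, 0.06, -0.12 and -0.02), and the glutathione carrier Slc25a39 (-0.08, -0.09, 0.12 and 0.10) did not pass.

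The remaining carriers were led by Slc25a45. Its arrays at 24 h gave 9.57, 9.33, 9.38, 9.77 and 9.69 in vehicle, 9.91, 10.21, 10.08, 10.11 and 10.18 at 250 µM, and 9.76, 9.72, 9.81, 10.02 and 10.19 at 1000 µM. At 48 h the arrays gave 9.01, 9.04, 9.52, 9.40 and 9.14 in vehicle, 9.82, 10.13, 10.13, 10.16 and 9.99 at 250 µM, and 9.58, 9.74, 9.99, 9.86 and 9.87 at 1000 µM. Treated arrays lay above all vehicle arrays except at 1000 µM for 24 h, where 9.76 and 9.72 were below the highest vehicle value of 9.77. The changes were 0.55 ± 0.12, 0.35 ± 0.12, 0.83 ± 0.12 and 0.59 ± 0.12 (limma, adjusted p 0.000636, 0.0322, 9.03e-07 and 0.000222). The call at 1000 µM for 24 h was lost without its replicates 4 or 5 (0.32 and 0.28) or without vehicle replicates 2 or 3 (0.30 and 0.31). At 48 h the 1000 µM change was 0.41 without the 4 arrays (adjusted p 0.205), and the 250 µM change was 0.65 (adjusted p 0.0212).

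Slc25a51l1 is named for its likeness to Slc25a51, the NAD carrier of the inner membrane. The 24 h arrays were 10.30, 10.30, 10.41, 10.58 and 9.83 in vehicle, 10.50, 10.38, 10.69, 10.60 and 10.62 at 250 µM, and 10.53, 10.33, 10.60, 10.58 and 10.54 at 1000 µM. The 48 h arrays were 9.30, 10.27, 9.79, 10.33 and 10.30 in vehicle, 10.47, 10.73, 10.71, 10.30 and 10.77 at 250 µM, and 10.54, 10.64, 10.45, 10.55 and 10.71 at 1000 µM. At 48 h the 1000 µM arrays lay above all vehicle arrays, whose replicates 1 and 3 read lowest at 9.30 and 9.79. The changes were 0.28 ± 0.14, 0.23 ± 0.14, 0.60 ± 0.14 and 0.58 ± 0.14, and those at 48 h passed (limma, adjusted p 0.00106 and 0.00209). With the covariate they were 0.28 and 0.34 (adjusted p 0.225 and 0.0952), and without the 4 arrays 0.27 and 0.25 (adjusted p 0.442 and 0.507). Probe sets of Slc25a51 itself named several gene entries and were not used.

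Slc25a46, which takes part in shaping the mitochondrial network, fell at 250 µM for 48 h (-0.16 ± 0.06, limma, adjusted p 0.0203). Its second probe set rose there by 0.50 and at 1000 µM by 0.35 (adjusted p 0.00142 and 0.0292), and the call of the first was lost with the covariate and without the 4 arrays, so the gene has no direction at 48 h that both probe sets share. Slc25a35 (0.60 ± 0.29, 0.37 ± 0.29, 0.19 ± 0.29 and 0.27 ± 0.29), Slc25a48 (0.15, -0.14, -0.04 and 0.00) and Slc25a53 (-0.17, 0.01, -0.31 and -0.10) did not pass. Slc25a34 lay below the limit on average, with group means of 5.10, 7.37 and 6.47 in vehicle, 250 µM and 1000 µM at 24 h and 5.06, 6.82 and 7.22 at 48 h.

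**Figure D2:**
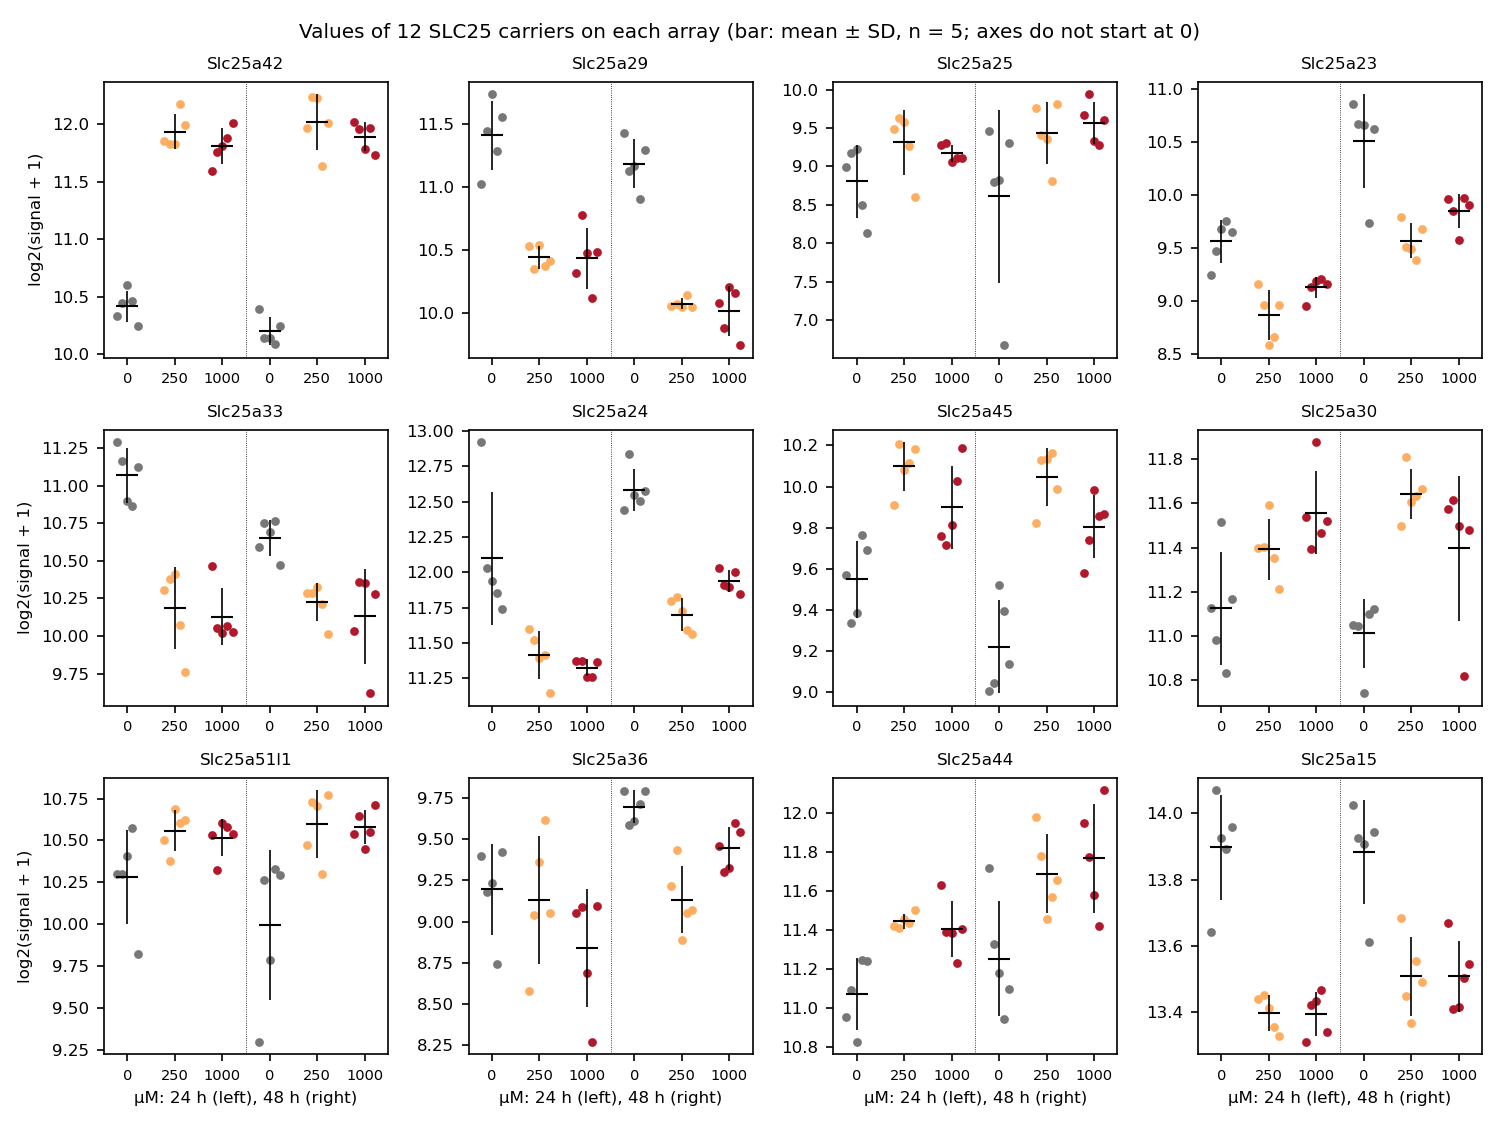
Points are the log2 signals of single arrays for the 12 carriers given well by well, in vehicle (0), 250 and 1000 µM at 24 h (left of the dotted line) and 48 h (right), and bars are the mean ± SD of 5 arrays. The treated arrays of Slc25a42 lie above 11.5 and its vehicle arrays below 10.7, and for Slc25a25 a single vehicle array at 48 h lies at 6.68.

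At 48 h, second probe sets of Slc25a30, Slc25a13, Slc25a44 and Slc25a36 gave the same direction as those used, with other sizes. That of Slc25a46 and some of Slc25a15 went the other way, as given above. That of Slc25a32 did so at 1000 µM (-0.10, against 0.10 in the one used). Slc25a30 had a second probe set that read 1.73 and 1.68 at 48 h (limma, adjusted p 1.16e-06 and 2.7e-06), against 0.63 and 0.38 in the one used. That of Slc25a13 read 0.92 and 0.77, against 0.39 and 0.35. That of Slc25a44 read 0.74 and 0.71, against 0.44 and 0.52. The second probe set of Slc25a36 gave -0.19 and -0.18 and did not pass. At 24 h the second probe sets of Slc25a30 (0.25 and 0.44) and Slc25a44 (0.29 and 0.12) did not pass. That of Slc25a13 did (0.32 and 0.39, limma, adjusted p 0.0136 and 0.00247). For Slc25a36 it read -0.11 and 0.07 at 24 h, against -0.06 and -0.36 in the one used. Of the 39 carriers, 27 had 1 probe set, among them Slc25a42, Slc25a29, Slc25a33, Slc25a24, Slc25a25 and Slc25a45, so that no second reading of them was available here. The other probe sets of Slc25a23 lay below the low-signal limit and were not tested.

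No carrier differed between the doses beyond the threshold. Between 1000 and 250 µM, 0 of 35 carriers were called at 24 h and 0 at 48 h (limma, 0% of all genes higher and 0.019% lower at 24 h, 0.038% higher and 0.0285% lower at 48 h). At an unadjusted p under 0.05 there was 1 carrier at 24 h, higher, and 2 at 48 h, both lower at 1000 µM. The 95% interval of the difference lay within 0.5 log2 units of 0 for 26 of 35 carriers at each time, and within 1 for 34 at 24 h and 35 at 48 h. For Slc25a42 the difference was -0.12 ± 0.10 at 24 h and -0.13 ± 0.10 at 48 h, and for Slc25a29 -0.01 ± 0.12 and -0.06 ± 0.12. At 48 h Slc25a24 read 0.24 ± 0.13, with all 1000 µM arrays above all 250 µM arrays (adjusted p 0.456).

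In vehicle, 8 carriers were higher at 48 h than at 24 h and 6 were lower (limma, 16.4% of all genes higher and 11.7% lower). Slc25a23 (0.95 ± 0.15, adjusted p 2.48e-05), Slc25a4 (0.51 ± 0.06, adjusted p 3.06e-07), Slc25a36 (0.50 ± 0.17) and Slc25a24 (0.48 ± 0.13) were higher by the most, and Slc25a22, Slc25a10, Slc25a1 and Slc25a13 by 0.34, 0.30, 0.20 and 0.19. Slc25a33 (-0.41 ± 0.13), Slc25a45 (-0.33 ± 0.12), Slc25a17 (-0.32 ± 0.07) and Slc25a32 (-0.31 ± 0.09) were lower, as were Slc25a5 (-0.17) and Slc25a11 (-0.15). The dose comparisons at 48 h use the same vehicle arrays at 48 h as this one. With centred array medians 6 carriers were higher and none lower. With the covariate 4 were called, and without the 4 arrays 2, Slc25a4 being the one call shared by all 3 fits. Leaving out vehicle replicate 1 at 48 h gave 6 calls, its replicate 2 or 5 gave 9, and its replicate 4 gave 16.

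The response to 250 µM differed between 48 and 24 h for 1 carrier, Slc25a11 (48 h minus 24 h 0.23 ± 0.07, limma, adjusted p 0.0446), which read -0.10 ± 0.05 at 24 h and 0.14 ± 0.05 at 48 h. Over all genes 3.84% were higher and 4.52% lower in this comparison, and 12 carriers had an unadjusted p under 0.05. The Slc25a11 call was lost with centred array medians, with the covariate and without the 4 arrays, where Slc25a25 was called instead. Left out singly, each of 13 arrays ended it with 0 carriers called (250 µM replicates 1, 2 and 4 at 24 h and 2, 3 and 5 at 48 h, vehicle replicates 5 at 24 h and 1, 3 and 5 at 48 h, and 1000 µM replicates 2 and 3 at 24 h and 2 at 48 h), vehicle replicates 1 or 3 at 24 h gave 2 calls, and vehicle replicate 4 at 48 h gave 6. For 1000 µM, 0 of 35 were called (limma, 0.522% and 0.446% of all genes), with 4 at an unadjusted p under 0.05, all higher at 48 h, and 1 call without vehicle replicate 4 at 48 h. With the mean of all probe sets of a gene, Slc25a13, Slc25a15 and Slc25a30 were called beside Slc25a11 at 250 µM, and Slc25a15 at 1000 µM. All these calls were higher at 48 h. For Slc25a42 the difference between times was 0.30 ± 0.14 at 250 µM and 0.30 ± 0.14 at 1000 µM (limma, adjusted p 0.186 and 0.408).

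**Figure D3:**
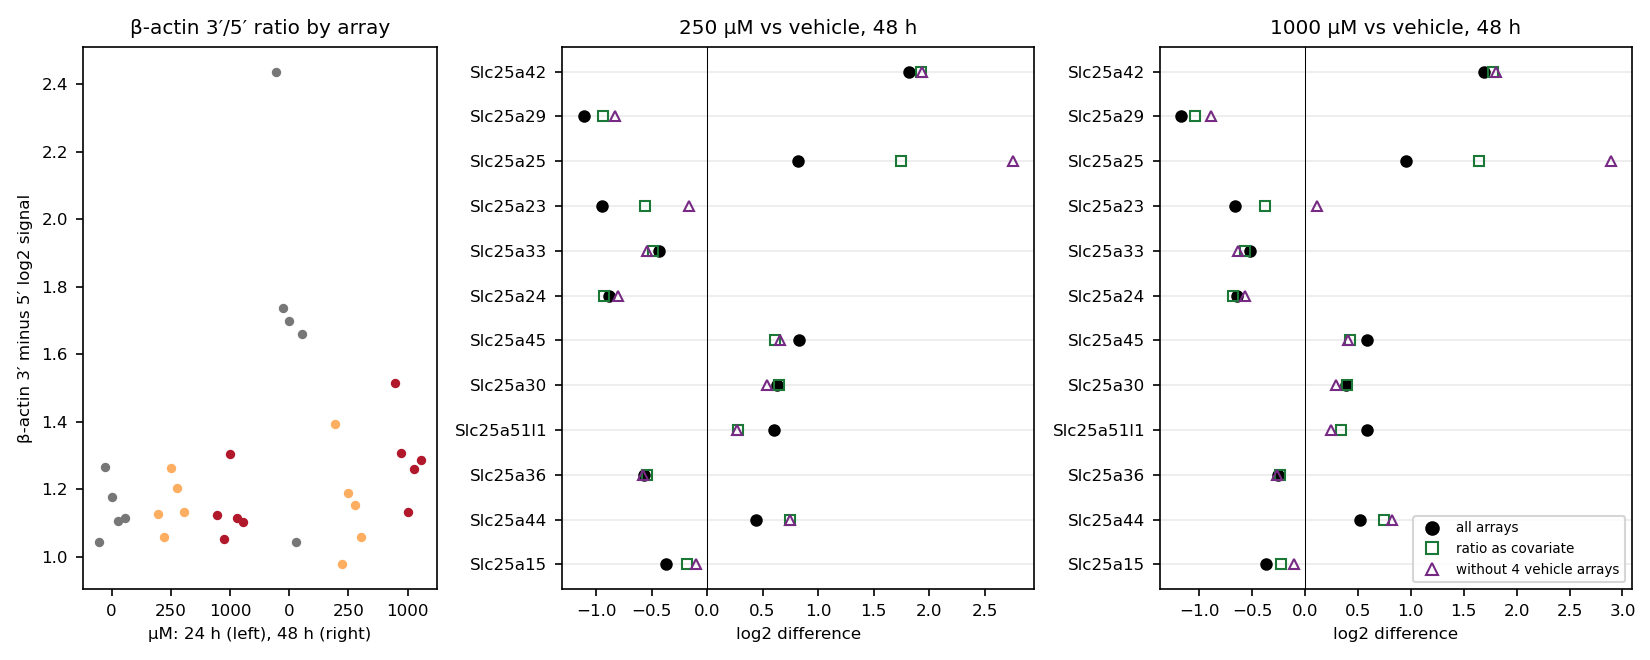
The left panel gives the β-actin ratio of each array (log2, 3′ minus 5′ probe set) by dose and time, and the other panels give the 48 h log2 differences of 12 carriers from all arrays (circles), with the ratio as a covariate (squares) and without the 4 vehicle arrays of highest ratio (triangles). Slc25a42 stays between 1.69 and 1.93, Slc25a23 moves from -0.66 to 0.12 at 1000 µM, and Slc25a25 moves from 0.82 to 2.75 at 250 µM.

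Other parts of mitochondrial transport and of the pathways that the carriers serve were read from lists chosen with earlier results of these data known. Of 5 tested family members under other symbols, 2 rose at each dose at 24 h and 3 rose and 1 fell at 48 h. Slc25a20, which exchanges carnitine and acylcarnitine for fatty acid oxidation, rose by 0.75 ± 0.07, 0.67 ± 0.07, 1.09 ± 0.07 and 0.94 ± 0.07. Ucp2, an uncoupling protein, rose by 3.64 ± 0.30, 2.92 ± 0.30, 1.87 ± 0.30 and 2.06 ± 0.30, and Mtch2, an outer membrane insertase, rose at 48 h by 0.38 ± 0.06 and 0.26 ± 0.06 (limma, adjusted p 1.04e-06 and 0.000394). Among 11 other mitochondrial membrane transport genes, 1 rose and 2 fell at 24 h and 2 rose and 2 fell at 48 h, at either dose. Mpc2, a subunit of the pyruvate carrier, rose by 0.73 ± 0.06, 0.70 ± 0.06, 1.21 ± 0.06 and 0.96 ± 0.06. Sfxn1, the serine carrier, fell (-0.68 ± 0.07, -0.68 ± 0.07, -1.14 ± 0.07 and -0.89 ± 0.07), and Abcb10 fell at 48 h (-0.69 ± 0.13 and -0.47 ± 0.13).

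Of 6 urea cycle enzymes, 3 fell at each dose at 24 h and 2 at 48 h, and none rose. Ass1, which joins citrulline with aspartate, fell (-0.63, -0.64, -0.79 and -0.76, each with a standard error of 0.06). Asl, which splits its product, also fell in all 4 (-0.21, -0.20, -0.28 and -0.32). Otc, which uses the ornithine that Slc25a15 imports, fell at 24 h (-0.74 ± 0.11 and -0.46 ± 0.11) and gave -0.07 and -0.13 at 48 h, which did not pass. Of 4 malate-aspartate shuttle enzymes, Mdh1 fell at 250 µM for 24 h (-0.23 ± 0.08) and Mdh2 rose at 48 h (0.25 ± 0.05 and 0.18 ± 0.05), and no other was called. Of 6 enzymes of citrate and pyruvate cycling, 3 rose and 2 fell at each dose at 24 h and 2 rose and 2 fell at 48 h. Malic enzyme Me1 rose (0.86 ± 0.11, 0.79 ± 0.11, 0.81 ± 0.11 and 0.80 ± 0.11), while Acly, which cleaves exported citrate (-0.56 ± 0.07, -0.42 ± 0.07, -0.50 ± 0.07 and -0.31 ± 0.07), and the mitochondrial isocitrate dehydrogenase Idh2 (-0.43 ± 0.06, -0.35 ± 0.06, -0.28 ± 0.06 and -0.26 ± 0.06) fell. Of 10 genes of the import machinery for carrier proteins, 2 rose at each dose at 24 h, 5 at 250 µM and 1 at 1000 µM for 48 h, and none fell. Timm10b rose in all 4 (0.55 ± 0.06, 0.58 ± 0.06, 0.84 ± 0.06 and 0.75 ± 0.06), and Timm10 (0.25 ± 0.07) and Timm13 (0.20 ± 0.06) at 250 µM for 48 h. The shares of all genes that rose and fell in these 4 comparisons are those given above. In vehicle, 6 of the 10 import genes were lower at 48 h than at 24 h and 0 higher (median -0.233, with 11.7% of all genes lower). The 48 h changes of all these lists rest on the same vehicle arrays as those of the carriers. They are not given here with the covariate or without the 4 arrays, where many carrier calls were lost.

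The 5 tested genes whose log2 signal followed that of Slc25a42 most closely over the 30 arrays were Spc24 (Pearson r = 0.979), Colq (0.977), Hacl1 (0.971), Eci2 (0.971) and Lrrc39 (0.969). Hacl1 takes part in peroxisomal alpha-oxidation and Eci2 in the oxidation of unsaturated fatty acids, and Spc24 is a kinetochore protein. The arrays share their cell source and differ in Slc25a42 between treated and vehicle groups, so the correlation is given as a description.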

How the data were processed

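RNA of 30 wells was hybridised to Affymetrix rat expression arrays. The authors deposited 1 linear intensity signal for each probe set and array, made with MAS5 per the submitters' processing notes. Its version and settings were not given in those notes. Every array had a trimmed mean of 1500.56 to 1500.66, so the deposited intensity values carry a common scaling, which hides any change in total RNA. Array medians were 8.45 to 8.79 on the log2 scale, and arrays of a group correlated at 0.968 to 0.986.

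Here log2(signal + 1) was taken, 57 control probe sets and those of the lowest 40% by mean signal were left out (limit 7.88, a signal of 234), and the highest-mean probe set with a single gene symbol was kept per gene. Symbols came from the platform annotation. All 30 arrays entered 1 fit with a mean per group, 24 residual degrees of freedom and 9 contrasts, in limma 3.58.1 (R 4.3.3, eBayes with a variance trend), with Benjamini-Hochberg adjustment over 10528 genes. On simulated data for 250 µM against vehicle at 24 h, run on 10528 genes, the fit recovered 87 of 100 genes changed by 1 log2 unit and 64 of 100 changed by 0.5. It made 8 false calls among the unchanged genes. The simulated noise was normal and independent, without outlying arrays or a raised β-actin ratio in a group. β-actin ratios were compared with exact permutation tests. The number of arrays limits the precision.

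The members and lists were chosen with earlier results of these data known. Values of each array were given for the 12 carriers called in at least 1 dose comparison with the largest absolute change, and Slc25a13 and Slc25a34 were added after their values were seen. From each companion list up to 3 called genes with the smallest p were named. Alternatives were centred medians, quantile normalization, no filter or a 60% filter, a pseudocount of 50, no variance trend, the mean of a gene's probe sets, an adjusted p under 0.01, a fit per time point, the β-actin ratio as covariate, leaving out 4 vehicle arrays, leaving out each array, and the runs of array numbers in the labels as a block, the last added after seeing the data. Upstream sequences came from RefSeq, assembly GRCr8.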

Additional observations from a re-analysis of the deposited data

Results flagged for a closer look

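Single arrays stood apart from the other 4 of their group in 9 of the 72 groups formed by the 12 carriers, where chance flags about 1 in 20 groups. Vehicle replicate 4 at 48 h was the lowest of its group for Slc25a25 at 6.68 (nearest array 8.79), for Slc25a23 at 9.73 (nearest 10.63) and for Slc25a15 at 13.61 (nearest 13.91), on the log2 scale. The same array had the lowest β-actin ratio of its group, 1.04. Vehicle replicate 3 at 48 h was lowest for Slc25a30 at 10.74, and vehicle replicate 1 at 24 h was highest for Slc25a24 at 12.92. In the 1000 µM group at 24 h, replicate 1 was lowest for Slc25a23 at 8.95 and highest for Slc25a33 at 10.47, and replicate 2 was lowest for Slc25a51l1 at 10.33. In the 1000 µM group at 48 h, replicate 4 was lowest for Slc25a30 at 10.82.

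The response of Slc25a11 to 250 µM differed between the times by 0.23 on the log2 scale (48 h minus 24 h, limma, adjusted p 0.0446).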

How the results depend on the processing

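For the 12 carriers, 394 of 428 values under the alternatives other than leaving out single arrays kept their direction and their side of the threshold, 29 lost a call, 4 gained one and 1 reversed. Leaving out single arrays kept 1403 of 1440, with 25 lost, 11 gained and 1 reversed. The causes were not tested beyond what the fits themselves change. Slc25a23 at 1000 µM for 48 h was 0.12 without the 4 vehicle arrays of high β-actin ratio. Slc25a36 at 250 µM for 24 h, not called, ran from -0.19 to 0.073 with single arrays left out, the last without 250 µM replicate 1.

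Counts of called carriers moved by over 1.5 times as follows. At an adjusted p under 0.01, 1000 µM at 24 h had 6, vehicle over time 6 and the time difference at 250 µM 0. With the covariate, 250 µM at 48 h had 12, vehicle over time 4 and the time difference at 250 µM 0. Without the 4 arrays, 250 µM and 1000 µM at 48 h had 9 and 7, vehicle over time 2 and the time difference at 1000 µM 1. With centred medians, vehicle over time had 6 (6 higher and 0 lower, against 8 and 6) and the time difference at 250 µM 0, as it also had with no variance trend. With the mean of all probe sets of a gene the time differences had 4 and 1. With single arrays left out, vehicle over time ran from 6 to 16, the time difference at 250 µM from 0 to 6 and that at 1000 µM from 0 to 1.

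The labels number the arrays 1 to 30 in 5 runs of 6, each with 1 array of every group, but do not say what a run is. Arrays of a run deviated from their group means with correlations of -0.124 to 0.223 (median 0.0413), over 0.1 in 19 of 75 pairs. Compared with arrays of other groups, 14 of 30 arrays correlated best with one of their own run. What chance would give for these counts was not computed. With the runs as a replicate block, an alternative chosen after seeing the data, 250 µM and 1000 µM had 11 and 11 calls at 24 h and 20 and 14 at 48 h. Slc25a44 at 1000 µM for 24 h was gained (0.34, adjusted p 0.0223) and Slc25a32 at 250 µM for 48 h lost (adjusted p 0.0501). For Slc25a25 the adjusted p was 0.24 and 0.417 at 24 h and 0.0192 and 0.00984 at 48 h. Slc25a18, Slc25a21, Slc25a31 and Slc25a34 lay below the limit of 7.88 and were tested only with no filter on low values, where Slc25a34 passed in 3 of the 4 dose comparisons and the other 3 in none.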

Other observations

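Slc25a34, a carrier below the low-signal limit, had log2 signals of 4.49, 5.95, 5.00, 5.70 and 4.38 in vehicle, 8.21, 6.95, 7.81, 7.47 and 6.43 at 250 µM, and 6.16, 5.41, 8.54, 6.22 and 6.02 at 1000 µM for 24 h. At 48 h it read 6.20, 4.76, 5.80, 5.44 and 3.12 in vehicle, 7.60, 7.58, 5.66, 6.48 and 6.79 at 250 µM, and 8.04, 6.86, 8.28, 6.08 and 6.86 at 1000 µM. All 250 µM arrays at 24 h lay above all vehicle arrays, and the other treated groups overlapped with vehicle. In the fit with no filter on low values, over 14217 genes, the adjusted p was 0.00488 and 0.124 at 24 h and 0.0176 and 0.00543 at 48 h, for 250 and 1000 µM (limma). No fold is given, since the group means lie under the limit.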
